A study of Homo sapiens with 12 samples.

Results

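The mRNAs of 10 subunits of eukaryotic initiation factor 3 (eIF3) were followed through light polysomes, heavy polysomes and total RNA of human MCF10A mammary epithelial cells. The genes were EIF3A, EIF3B, EIF3D, EIF3E, EIF3F, EIF3G, EIF3H, EIF3I, EIF3J and EIF3M, 10 of the 19775 genes that the arrays name by a probe set with a single gene symbol. They were chosen by name, with earlier results of these data known. The members have 26 such probe sets, and where a gene has several, the brightest by its mean log2 value in the 12 arrays was used. All 10 passed the filter on low values (a log2 intensity of at least 6 in at least 4 arrays), and all 10 lay at or above that level in all 12 arrays. The cells were wild type (WT) or silenced for eIF4G1 by a short hairpin RNA that doxycycline induces (4GKD), and each genotype received a mock treatment or 10 Gy of radiation. Of each of the 4 conditions, light polysomes (LMW), heavy polysomes (HMW) and unfractionated RNA (Total) were each put on 1 array. In the labels of the WT mock pools, LMW stands for 1 to 3 ribosomes and HMW for at least 4. Whether WT cells received doxycycline or a control hairpin, whether the silenced cells are a clone, and the time from irradiation to harvest are not stated in the labels. The labels give breast cancer as the cell origin, while MCF10A is generally described as a line of non-tumorigenic mammary epithelium. Nothing says that the samples came from separate cultures, so the p-values speak only to the spread among these samples, which may be technical.

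eIF3 is the largest of the initiation factors. It binds the small ribosomal subunit and brings it to the mRNA through direct contact with eIF4G1, the scaffold of the cap-binding complex. Its subunits fall into structural parts: a core with PCI and MPN domains, to which EIF3A, EIF3E, EIF3F, EIF3H and EIF3M belong, a mobile module of EIF3B, EIF3G and EIF3I, the cap-binding subunit EIF3D attached at the side, and the loosely held EIF3J near the decoding site. The position of an mRNA in a sucrose gradient depends on how many ribosomes it carries, which is bounded by the length of its coding region. Coding lengths were not examined here.

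A group of mRNAs of the translation machinery begins at the cap with a C and a run of pyrimidines, the terminal oligopyrimidine start. The annotated starts of 6 members are shown because that first stretch is what the cap-binding complex meets. RefSeq promoter sequences of GRCh38.p14 held EIF3B, EIF3D, EIF3F, EIF3I, EIF3J and EIF3M, and those of EIF3A, EIF3E, EIF3G and EIF3H are not shown. Each line gives 10 bases before and 20 bases from the annotated start, 5′ to 3′ on the strand of the gene. Capitals mark a run of C and T that begins at the start with a C and spans at least 5 bases.
EIF3D, chr22:36529147-36529176, minus strand: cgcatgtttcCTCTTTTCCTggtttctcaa
EIF3F, chr11:7987327-7987356, plus strand: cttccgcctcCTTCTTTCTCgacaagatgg
EIF3M, chr11:32583821-32583850, plus strand: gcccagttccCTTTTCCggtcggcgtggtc
EIF3B, chr7:2354817-2354846, plus strand: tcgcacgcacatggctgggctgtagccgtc
EIF3I, chr1:32222397-32222426, plus strand: ttccggtcttactcacgttgcggccttcct
EIF3J, chr15:44537137-44537166, plus strand: ccgccgtgctaactcctcgctagctctccc

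EIF3D and EIF3F had runs of 10 bases and EIF3M a run of 7, while EIF3B, EIF3I and EIF3J began with A. The same start, searched on the gene's strand only, was found in 4.07% of the 35116 promoters of the table and in 47 of 78 entries for cytosolic ribosomal protein genes. An annotated start need not be the start used in these cells, so the runs describe the annotation.

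The deposited values were probe set intensities on a linear scale. Array medians ranged from 22.6 to 24.4, and the number of arrays limits the precision. Arrays measure each mRNA relative to the rest of the RNA, so a larger share and more RNA per cell cannot be told apart. EIF4G1, the silenced gene, was lower in the knockdown in all 6 matched pairs, with 15.9% and 20.4% of the WT level left in Total of mock and irradiated cells. Of 7 measured basal epithelial markers 6 lay at or above the filter level in all 12 arrays, KRT5 between log2 values of 11.7 and 13.8, whereas 4 of 8 luminal, 4 of 6 fibroblast and 2 of 4 immune markers were below it in every array, PTPRC and COL1A2 among them. The luminal markers KRT18 (log2 values of 11.8 to 13.8), KRT8 (8.93 to 10.6) and GATA3 (7.28 to 8.07) reached that level in all 12 arrays, and ESR1 in 6. COL1A1 reached it in 11 arrays, CD14 in 10, PDGFRB in 7 and CD79A in 5. Of the 4 WT polysome arrays 3 stood apart. The SD over genes of an array's deviation from the other arrays of its preparation was 0.79 (LMW) and 0.84 (HMW) for WT mock cells and 0.76 for LMW of irradiated WT cells, against 0.44 to 0.65 in the remaining polysome arrays and 0.32 to 0.42 in Total. Their part in the results was not tested beyond the values given with each comparison.

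**Figure D1:**
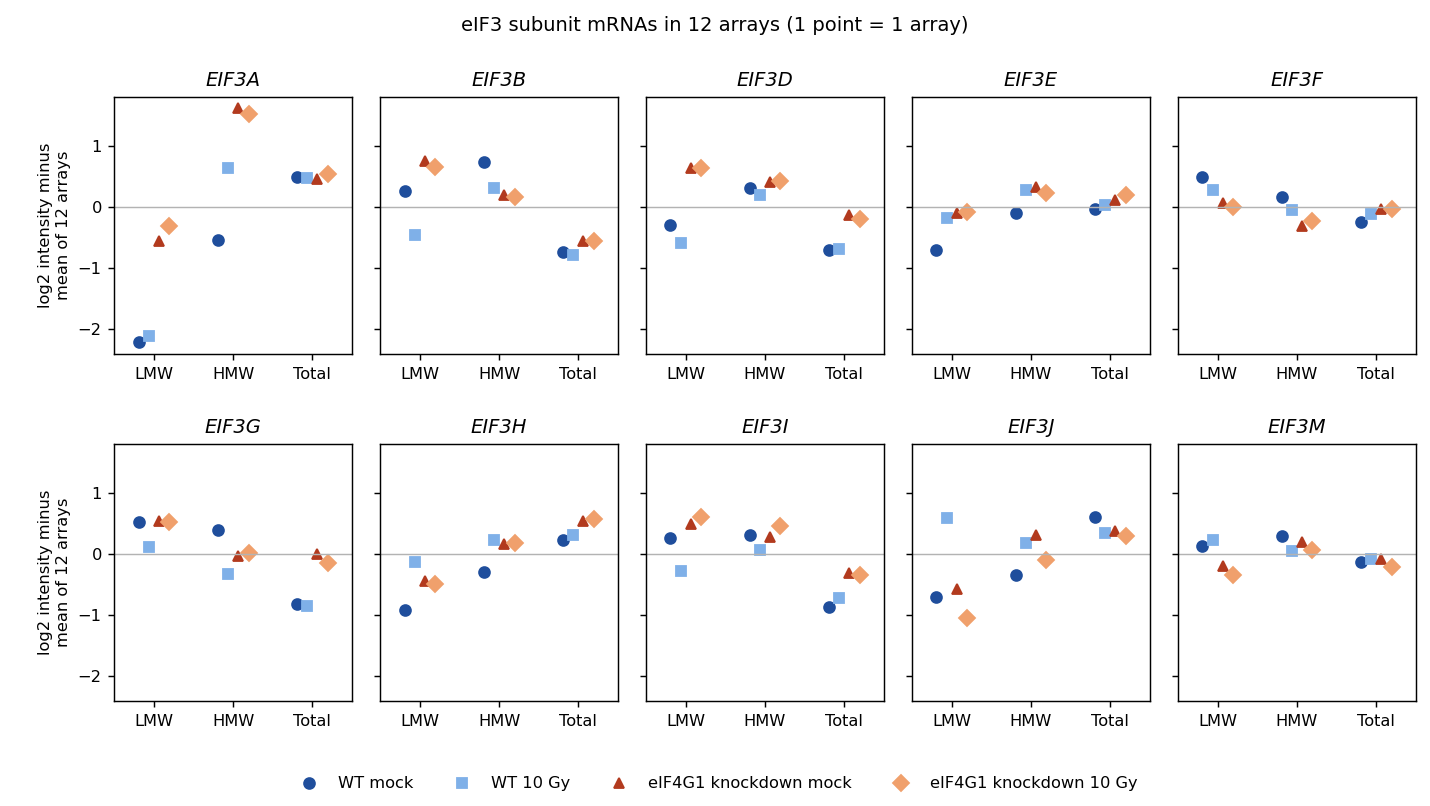
Level of each eIF3 subunit mRNA in light polysomes (LMW), heavy polysomes (HMW) and unfractionated RNA (Total), as log2 intensity minus the gene's own mean over 12 arrays; 1 point is 1 array, with colour and shape for the condition. EIF3A spans a 14.2-fold range with its lowest points in LMW of WT cells, while EIF3M spans 1.55-fold.

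The subunit mRNAs differed in how much they varied. EIF3A ranged 14.2-fold over the 12 arrays, EIF3J 3.15-fold, and EIF3M and EIF3F only 1.55-fold and 1.74-fold, beside a median range of 3.14-fold over all genes tested. In Total alone the range of a member was at most 1.80-fold (EIF3G) and was 1.06-fold for EIF3A. The range over the 4 conditions was larger in LMW than in Total for 9 of the 10 and larger in HMW than in Total for 7. The share of all genes with that order was not counted. Genes at large also varied more in the polysome pools, the SD over all genes of the knockdown difference being 0.81 in LMW, 0.68 in HMW and 0.51 in Total. EIF3G varied most in Total, and EIF3D and EIF3I varied more in Total than in HMW.

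Heavy against light polysomes asks which mRNAs carry many ribosomes. EIF3A was 4.32-fold higher in HMW than in LMW, and EIF3E and EIF3H, also of the core, were 1.37-fold and 1.48-fold higher. EIF3F of the core and EIF3G of the mobile module were lower in HMW, at 80.4% and 75.4% of their LMW level. EIF3B, EIF3D, EIF3I, EIF3J and EIF3M did not pass. Thus 3 of 10 members were higher (19.6% of all genes tested) and 2 lower (21.1%), or 5 in either direction (40.7%), at an adjusted p under 0.05 in limma with the condition as a block. The median of the members was 0.22 on the log2 scale and that of all 10157 genes tested -0.06.

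EIF3A encodes the largest subunit, which spans the core and reaches the mobile module. Its probe set (200595_s_at) read 410.4, 439, 1288 and 1533 in LMW of WT mock, WT 10 Gy, knockdown mock and knockdown 10 Gy cells, and 1311, 2977, 5824 and 5449 in HMW in the same order. HMW exceeded LMW in every condition, although the HMW array of WT mock cells lay below the LMW array of irradiated knockdown cells. The difference was 2.11 ± 0.19 (SE, 4 pairs, adjusted p = 0.00128), with pairs from 1.68 to 2.76. Both other EIF3A probe sets gave means of 2.64 and 2.72, higher in 4 of 4 pairs.

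EIF3E and EIF3H, a PCI and an MPN subunit of the core, were higher in HMW in 4 of 4 pairs each. EIF3E (208697_s_at) read 5157, 7414, 7872 and 8001 in LMW and 7853, 10255, 10616 and 9867 in HMW, in the order of conditions above, a difference of 0.45 ± 0.09 (adjusted p = 0.00900). EIF3H (201592_at) read 3168, 5456, 4373 and 4218 in LMW and 4882, 6973, 6654 and 6742 in HMW, a difference of 0.56 ± 0.10 (adjusted p = 0.00667). In both genes the 2 pools overlapped across conditions, and WT mock cells were lowest in each pool. A second EIF3E probe set near the filter level averaged 0.11, and with it in place of the main one EIF3E did not pass (adjusted p = 0.746).

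EIF3F and EIF3G were lower in HMW in 4 of 4 pairs each, by smaller amounts. EIF3F (200023_s_at), an MPN subunit, read 11252, 9701, 8398 and 8043 in LMW and 8980.5, 7782, 6477 and 6814 in HMW (-0.31 ± 0.08, adjusted p = 0.0216). EIF3G (208887_at), which carries an RNA recognition motif, read 4346, 3284, 4389.6 and 4366 in LMW and 3998, 2424, 2952 and 3084 in HMW (-0.41 ± 0.12, adjusted p = 0.0293). In each pool both WT arrays of EIF3F lay above both knockdown arrays, and the pools overlapped for both genes.

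Some of these calls were lost when a condition was left out, which leaves fewer pairs. Over all genes, calls went from 4134 to 2283 without WT mock, 2441 without knockdown mock, 2931 without knockdown 10 Gy and 4593 without WT 10 Gy cells. The difference of EIF3F stayed between -0.29 and -0.34 whichever condition was left out. The call of EIF3F ended on leaving out WT mock (adjusted p = 0.0909), knockdown mock (0.100) or knockdown 10 Gy cells (0.0697), as well as without the trend of the variance (0.0732), and that of EIF3G without the knockdown mock (0.128) or the knockdown 10 Gy pair (0.113). EIF3J passed without the WT 10 Gy pair (0.73, adjusted p = 0.0150). Without the condition block no member passed in limma, against 0.541% of all genes tested. Adjusted p then ran from 0.133 for EIF3A to 0.250 for EIF3F among the 5 called with the block.

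**Figure D2:**
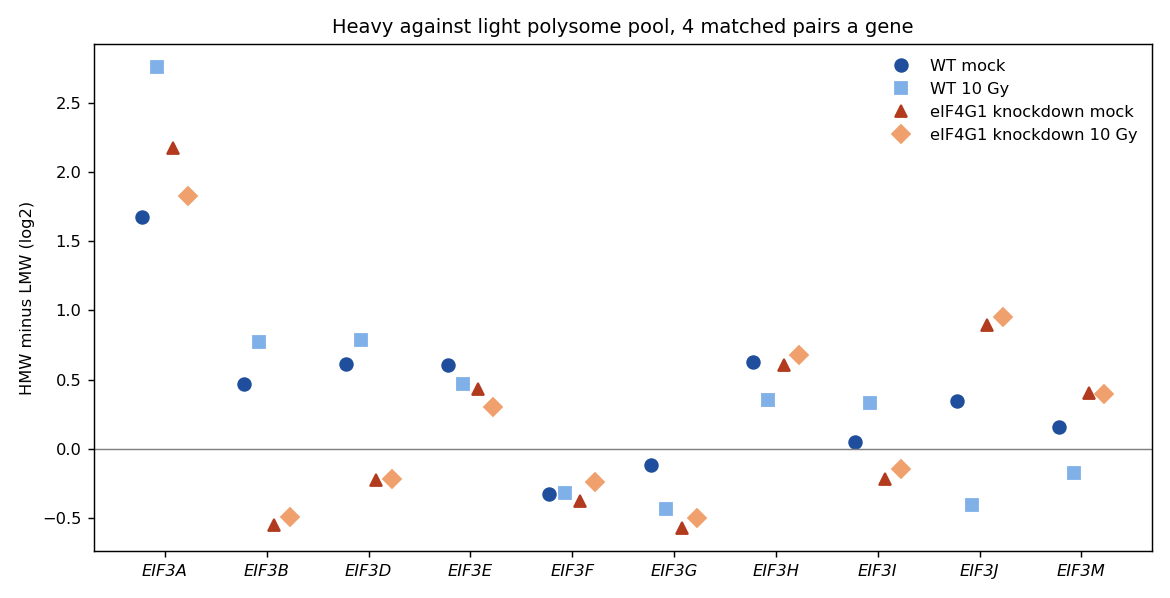
Difference between heavy and light polysome pool (HMW minus LMW, log2) for each eIF3 subunit mRNA; each point is 1 matched pair of arrays from 1 condition. EIF3A lies between 1.68 and 2.76 in all 4 pairs, and EIF3B, EIF3D and EIF3I have both WT pairs above 0 and both knockdown pairs below 0.

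The polysome pools against Total ask which mRNAs are over-represented on ribosomes relative to their abundance. EIF3B, EIF3D and EIF3I were higher than in Total in both pools, by 1.44-fold to 2.02-fold, and EIF3G was higher in LMW (1.83-fold). EIF3H was lower than in Total in both pools, and EIF3A and EIF3J in LMW. In LMW 4 members were higher (28.5% of all genes tested) and 3 lower (28.1%), or 7 in either direction (56.6%). In HMW 3 were higher (17.4% of all genes tested) and 1 lower (18.6%), or 4 in either direction (36%). Both comparisons use the same Total arrays, so they are not independent.

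EIF3B, the scaffold of the mobile module, had the largest excess of the 10 in HMW over Total. Its probe set (208688_x_at) read 2247, 2173, 2556 and 2547 in Total, 4520.1, 2728, 6357 and 5936 in LMW, and 6267, 4659, 4327 and 4217 in HMW. Every polysome array thus lay above every Total array. The difference was 1.02 ± 0.15 for HMW (adjusted p = 0.00261) and 0.97 ± 0.20 for LMW (adjusted p = 0.00522), in 4 of 4 pairs each. With the median of all 6 EIF3B probe sets, 3 of which average below the filter level, neither passed (adjusted p = 0.647 and 0.426).

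EIF3I, a WD40 propeller protein of the same module, showed the same order. Its probe set (208756_at) read 2183, 2421, 3184 and 3125 in Total, 4753, 3286, 5582 and 6018 in LMW, and 4909, 4139, 4784 and 5449.6 in HMW. No Total array reached a polysome array. The excess was 0.83 ± 0.13 in HMW (adjusted p = 0.00288) and 0.83 ± 0.17 in LMW (adjusted p = 0.00503).

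EIF3D exceeded Total by 0.77 ± 0.12 in HMW (adjusted p = 0.00300) and by 0.53 ± 0.18 in LMW (adjusted p = 0.0321), in 4 of 4 pairs each. The LMW call was lost without the WT mock (adjusted p = 0.0682), the knockdown mock (0.157) or the knockdown 10 Gy pair (0.177). EIF3G, the remaining subunit of the module, exceeded Total by 0.87 ± 0.19 in LMW (adjusted p = 0.00598). In HMW it stood between -0.04 (knockdown mock) and 1.21 (WT mock) and did not pass (0.46, adjusted p = 0.105).

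EIF3H was below Total in both pools, at -0.91 ± 0.16 in LMW (adjusted p = 0.00295) and -0.34 ± 0.10 in HMW (adjusted p = 0.0277), in 4 of 4 pairs each. Its Total arrays read 6955, 7396, 8649 and 8824. The highest HMW array, that of irradiated WT cells, lay just above the Total array of WT mock cells. The HMW call was lost without the knockdown mock (adjusted p = 0.0943) or the knockdown 10 Gy pair (0.0900), and without the trend of the variance (0.123).

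EIF3A read 2662, 2647, 2620.3 and 2779 in Total, nearly the same in the 4 conditions and above every LMW array. Its LMW level was lower by 1.79 ± 0.35 on the log2 scale (adjusted p = 0.00420). The WT pairs were at -2.70 and -2.59 and the knockdown pairs at -1.02 and -0.86. In HMW it stood between -1.02 (WT mock) and 1.15 (knockdown mock) and did not pass (0.32, adjusted p = 0.453), but it did without the WT mock pair (0.76, adjusted p = 0.00655).

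EIF3J (208985_s_at) read 1099, 917, 939 and 888 in Total, 446, 1091, 483 and 349 in LMW, and 567, 823, 900.4 and 675 in HMW. The LMW array of irradiated WT cells stood apart from the other LMW arrays, near the Total level. LMW was lower than Total in 3 of 4 pairs (-0.84 ± 0.30, adjusted p = 0.0424), a call lost without the WT mock (adjusted p = 0.158), the knockdown mock (0.0990) or the knockdown 10 Gy pair (0.135). EIF3E (adjusted p = 0.0503 in LMW), EIF3F and EIF3M passed in neither pool. EIF3M, a PCI subunit (202231_at), stayed within 3147 and 4888 over all 12 arrays.

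The knockdown in Total asks whether cells with little eIF4G1 hold more or less of the subunit mRNAs. EIF3G rose 1.69-fold, EIF3D 1.44-fold, EIF3I 1.37-fold, EIF3H 1.22-fold and EIF3E 1.11-fold. With 5 of 10 members higher (20.7% of all genes tested) and 0 lower (19.8%), 40.5% of all genes being called in either direction, the median of the members was 0.18 on the log2 scale and that of all genes 0.03. At an unadjusted p under 0.05 in limma 7 were higher (25.4% of all genes tested) and 0 lower (22.9%). EIF3A, EIF3B, EIF3F, EIF3J and EIF3M did not pass, with differences of 0.21 for EIF3B (adjusted p = 0.0578), 0.14 for EIF3F (0.0773), -0.14 for EIF3J (0.305) and -0.04 for EIF3M (0.716).

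EIF3G read 1727 and 1689.7 in Total of WT mock and WT 10 Gy cells, and 3033 and 2748 in the matching knockdown arrays. The genotypes were well separated, with a difference of 0.76 ± 0.08 (SE, 2 pairs, adjusted p = 9.01e-05). EIF3D (200005_at) read 2606 and 2633 in WT and 3867 and 3695 in knockdown cells, again without overlap (0.53 ± 0.07, adjusted p = 0.000392). EIF3I followed with 0.46 ± 0.08 (adjusted p = 0.00157), EIF3H with 0.28 ± 0.06 (adjusted p = 0.00281) and EIF3E with 0.15 ± 0.05 (adjusted p = 0.0431), each in 2 of 2 pairs.

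EIF3A stayed nearly level by its main probe set, with pairs of -0.02 and 0.07. Its probe set with the lowest level, 200597_at, gave -0.65 and -0.49. The second EIF3E probe set, 235429_at, gave -1.28 and -1.25, opposite to the main one, and lay below the filter level in 5 of 12 arrays. The smallest changes were the least stable: the call of EIF3E was lost without the filter (adjusted p = 0.141), after quantile normalisation (0.0703) and without the trend (0.283), and that of EIF3H without the trend (0.0745). The fit has 1 residual degree of freedom. Fitted with the polysome arrays in a single limma model, whose spread is larger, no member passed, against 2.36% of all genes tested. Adjusted p then ran from 0.119 for EIF3D to 0.766 for EIF3E among the 5 members called in Total alone.

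Cell type markers moved with the same contrast in Total. Of 7 basal epithelial markers 4 rose (20.7% of all genes tested) and 2 fell (19.8%), among them CDH1 (1.20) and KRT14 (-1.29). Of 4 luminal markers tested 2 rose, KRT18 by 0.82 and KRT8 by 0.43. COL1A1, 1 of 2 fibroblast markers tested, rose by 0.78, and CD14, 1 of 2 immune markers tested, fell by 1.17. The summed intensity of the luminal list was 5325 to 5449 in WT and 8706 to 9388 in knockdown cells, that of the basal list 27193 to 27204 and 24753 to 25441. The fibroblast list summed to 199 to 214 in WT and 259.6 to 281 in knockdown cells, and the immune list to 188 to 201 and 129.7 to 131. Their part in the changes of the eIF3 mRNAs was not tested.

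In LMW EIF3A, EIF3D and EIF3B rose in the knockdown, by 3.31-fold, 2.12-fold and 1.75-fold. In HMW EIF3A rose 2.85-fold. In LMW 3 of 10 were higher (10.3% of all genes tested) and 0 lower (5.1%), with 15.4% called in either direction. In HMW 1 was higher (5.82% of all genes tested) and 0 lower (4.09%), with 9.9% in either direction. At an unadjusted p under 0.05 in limma 4 were higher (16.7% of all genes tested) and 0 lower (11%) in LMW, and 1 (11%) and 0 (9.32%) in HMW. In these fits limma took the spread entirely from genes of like level, and how far the 2 pairs of a gene lie apart has no part in its p-value.

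Of the 7 basal markers 6 were higher in LMW of the knockdown (10.3% of all genes tested), with a median of 1.96. In HMW 5 were higher (5.82% of all genes tested) and 1 lower (4.09%). The summed basal level was 16221 to 18835 in LMW of WT and 32966 to 39882 in LMW of knockdown cells, and 33827 to 34453 and 38404.5 to 44776 in HMW. The luminal list summed to 4539 to 6428 in WT and 15218 to 16350.3 in the knockdown in LMW, with 2 of 4 markers higher, and 1 of 4 was higher in HMW. COL1A1 rose by 2.03 in LMW. The part of these markers' changes in those of the eIF3 mRNAs was not tested.

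The LMW difference of EIF3A was 1.73 ± 0.46 (adjusted p = 0.00297) with pairs of 1.65 and 1.80, and the HMW difference 1.51 ± 0.27 (adjusted p = 1.38e-06) with pairs of 2.15 and 0.87. Both knockdown arrays lay above both WT arrays in each pool, while Total did not separate them. The test of HMW minus Total gave 1.49 ± 0.30 (adjusted p = 9.25e-05), with pairs of 2.17 and 0.80, so the knockdown difference was larger in HMW than in Total in both pairs. In this test too the gap between the pairs of a gene has no part in its p-value. EIF3A was the only member of the 10 to pass there (3.97% of all genes tested were higher, 0.492% lower and 4.46% either). In the same test 3 of 7 basal markers were higher and 0 lower, and their part in the value of EIF3A was not tested. By the probe set 200597_at alone that test gave 1.53 (adjusted p = 0.0542), and the HMW difference was 0.96 (adjusted p = 0.205).

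EIF3D read 3447 and 2826 in LMW of WT mock and irradiated WT cells, and 6628 and 6618 in the knockdown arrays, a difference of 1.09 ± 0.26 (adjusted p = 0.000713). In HMW it read 5277 and 4876 in WT and 5668 and 5699.6 in knockdown cells, a difference of 0.16 that did not pass (adjusted p = 0.777). EIF3B differed by 0.81 ± 0.26 in LMW (adjusted p = 0.0162), with pairs of 0.49 and 1.12, and stood at -0.34 in HMW (adjusted p = 0.450). EIF3B and EIF3D no longer passed in LMW without the trend of the variance with intensity (adjusted p = 0.180 and 0.0532), nor EIF3B without the filter on low values (adjusted p = 0.0581) or with the median of its probe sets (0.21, adjusted p = 0.828).

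The remaining members did not pass in either pool. In simulated data the knockdown fits called 19% of planted 2-fold changes in LMW and 6% in HMW. EIF3J had the widest gap between its pairs, with 0.12 in mock and -1.64 in irradiated cells in LMW, and 0.67 and -0.28 in HMW. EIF3H likewise had pairs of opposite sign, 0.47 and -0.37 in LMW and 0.45 and -0.05 in HMW. EIF3I (0.23 and 0.87 in LMW) and EIF3E (0.61 and 0.11) were above 0 in both LMW pairs, and EIF3F (-0.42 and -0.27) and EIF3M (-0.34 and -0.57) below 0 in both. EIF3G, the member that rose most in Total, stood at 0.01 and 0.41 in LMW and at -0.44 and 0.35 in HMW. Its test of HMW minus Total gave -0.80 with pairs of -1.25 and -0.35, and did not pass (adjusted p = 0.155).

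With the 3 WT mock arrays left out, an alternative chosen after seeing the data, 9 members passed in LMW (61.2% of all genes tested) and 3 in HMW (39.9%). The WT level then rests on the irradiated WT arrays, and the spread on the difference between mock and irradiated knockdown arrays. EIF3H in LMW (-0.35) and EIF3G in HMW (0.30) took the opposite sign there.

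**Figure D3:**
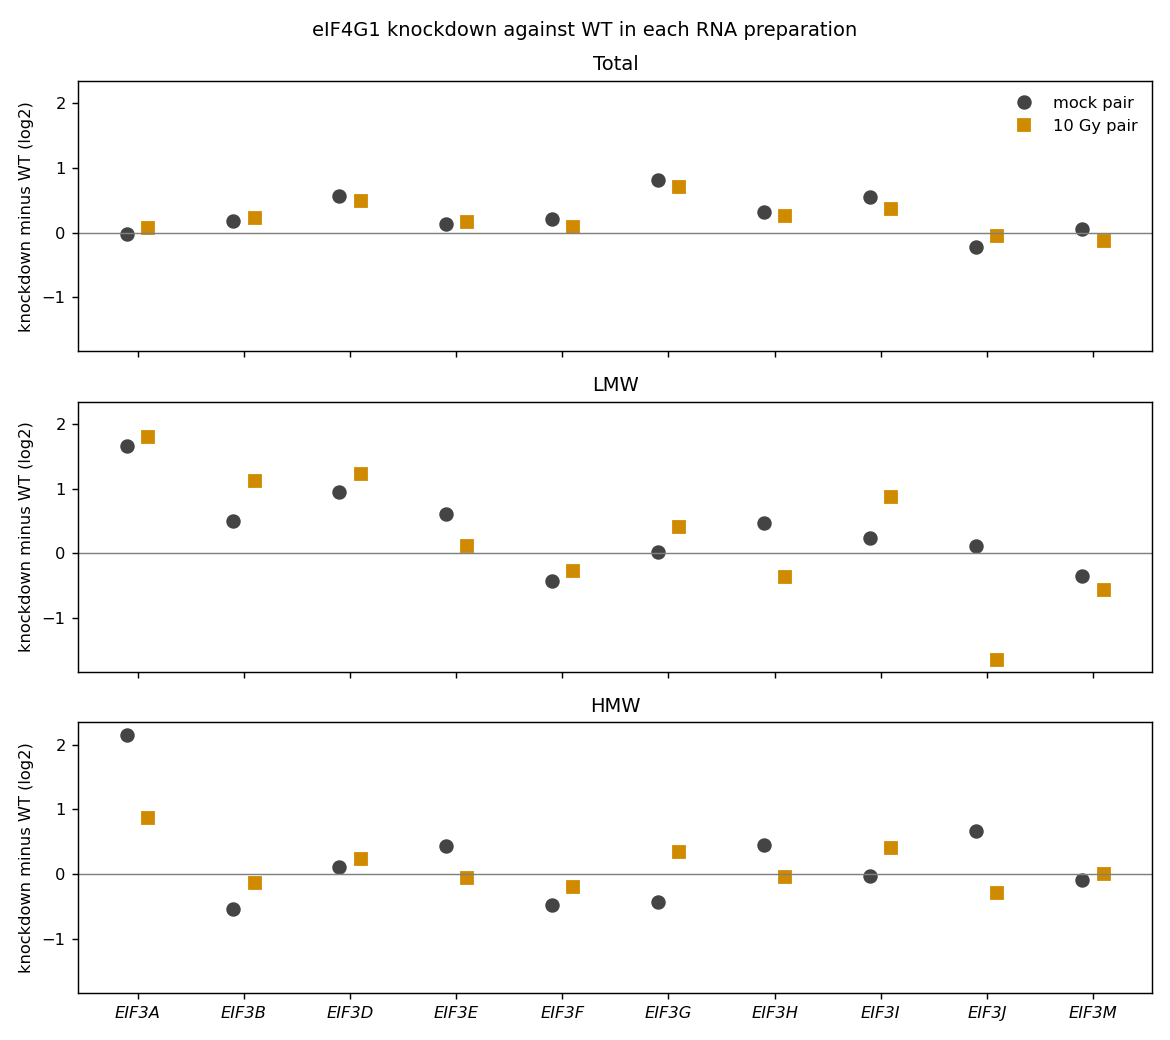
Difference between eIF4G1 knockdown and WT cells (log2) for each eIF3 subunit mRNA in total RNA (Total), light polysomes (LMW) and heavy polysomes (HMW); circles are the mock pair and squares the 10 Gy pair. EIF3A is near 0 in Total and at 1.65 and 1.80 in LMW. The pairs lie closer together in Total than in the polysome pools, apart from EIF3M in HMW (-0.09 and 0.005, against 0.05 and -0.13 in Total).

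The knockdown effect on HMW minus LMW asks whether the balance of heavy and light polysomes shifted. EIF3B and EIF3D shifted towards light polysomes in the knockdown and EIF3J towards heavy ones. Of the 10, 2 were lower (10.5% of all genes tested) and 1 higher (5.33%), or 3 in either direction (15.8%), in limma. EIF3B changed by -1.15 ± 0.17 (adjusted p = 3.17e-05), and EIF3D by -0.92 ± 0.16 (adjusted p = 0.000277), in 2 of 2 pairs each. EIF3J changed by 0.96 ± 0.28 (adjusted p = 0.0185), in 2 of 2 pairs. The spread in this test came mostly from genes of like level, so the gap between the 2 pairs of a gene has little part in its p-value.

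EIF3B was higher in HMW than in LMW by 0.47 and 0.77 in WT mock and irradiated WT cells, and stood at -0.55 and -0.49 in the knockdown pairs. EIF3D stood at 0.61 and 0.79 in WT and at -0.23 and -0.22 in the knockdown. EIF3I had the same order of signs with smaller values, 0.05 and 0.33 in WT against -0.22 and -0.14 in the knockdown, and did not pass (-0.37, adjusted p = 0.126). Both WT pairs above 0 and both knockdown pairs below 0 were found for these 3 of 10 members and for 6.89% of all genes tested. That rule follows the signs these members showed, and the reverse signs were not counted. The next EIF3B probe sets by level gave -1.15 and -1.14, while the median of all 6 gave -0.34 (adjusted p = 0.423).

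The same test was lower for 6 of 7 basal markers (10.5% of all genes tested), with a median of -1.15, for 2 of 4 luminal markers and for COL1A1 (-1.35). It was higher for none of them (5.33% of all genes tested). Their part in the shifts of EIF3B and EIF3D was not tested.

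EIF3J stood at 0.35 and -0.41 in WT and at 0.90 and 0.95 in the knockdown. Its second probe set, 208264_s_at, gave a knockdown effect of 1.27 with pairs of 1.07 and 1.47. The call of EIF3J was lost after quantile normalisation (adjusted p = 0.0657) and without the trend of the variance (adjusted p = 0.0570). EIF3M, with 0.16 and -0.17 in WT and 0.41 and 0.40 in the knockdown, did not pass (0.41, adjusted p = 0.110). In all, the pairs of the genotypes did not overlap in 7 of 10 members (58.1% of all genes tested), with WT above in 5 (31.9%) and the knockdown above in 2 (26.2%). Of the 3 members that passed, EIF3D has the pyrimidine run shown above at its annotated start, and EIF3B and EIF3J do not.

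Irradiation with 10 Gy asks whether the subunit mRNAs or their ribosome association respond to DNA damage. None of the 10 members passed in limma in Total (0.177% of all genes tested), LMW (0.374% of all genes tested) or HMW (0.473% of all genes tested). At an unadjusted p under 0.05 in limma there were 0 members in Total (12.8% of all genes tested) and LMW (7.86%) and 1 in HMW (8.39%). The latter was EIF3A (0.54 ± 0.27, adjusted p = 0.571), with pairs of 1.18 in WT and -0.10 in the knockdown. In LMW and HMW the gap between the pairs of a gene again has no part in its p-value. In simulated data the 10 Gy fits called 14% of planted 2-fold changes in LMW, 17% in HMW and 100% in Total. In Total the pairs of all 10 members lay between -0.26 and 0.15.

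In the polysome pools the single WT pair held most of the differences, which compare 1 array with 1 and were not tested. EIF3J in LMW was at 1.29 in WT and -0.47 in knockdown cells, and EIF3A in HMW at 1.18 and -0.10. Those were the only members past 2-fold in the WT pairs (20.1% of all genes tested in LMW and 18% in HMW), and no member was past 2-fold in the knockdown pairs (1.33% and 0.847%) or in Total of either genotype (0.0886% in WT and 0.965% in the knockdown). The size of the 10 Gy difference was larger in WT than in the knockdown for 8 of 10 members in LMW and 10 of 10 in HMW, where 78.9% and 79.6% of all genes tested had the same order. In the WT pairs 5 members were below 0 in both pools: EIF3B (-0.73 in LMW, -0.43 in HMW), EIF3G (-0.40, -0.72), EIF3I (-0.53, -0.25), EIF3D (-0.29, -0.11) and EIF3F (-0.21, -0.21). EIF3E (0.52, 0.38), EIF3H (0.78, 0.51), EIF3A (0.10, 1.18) and EIF3J (1.29, 0.54) were above 0 in both, and EIF3M stood at 0.09 and -0.24. All WT pairs rest on the WT mock polysome arrays, which stood apart from the rest, and their part in these values was not tested.

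**Figure D4:**
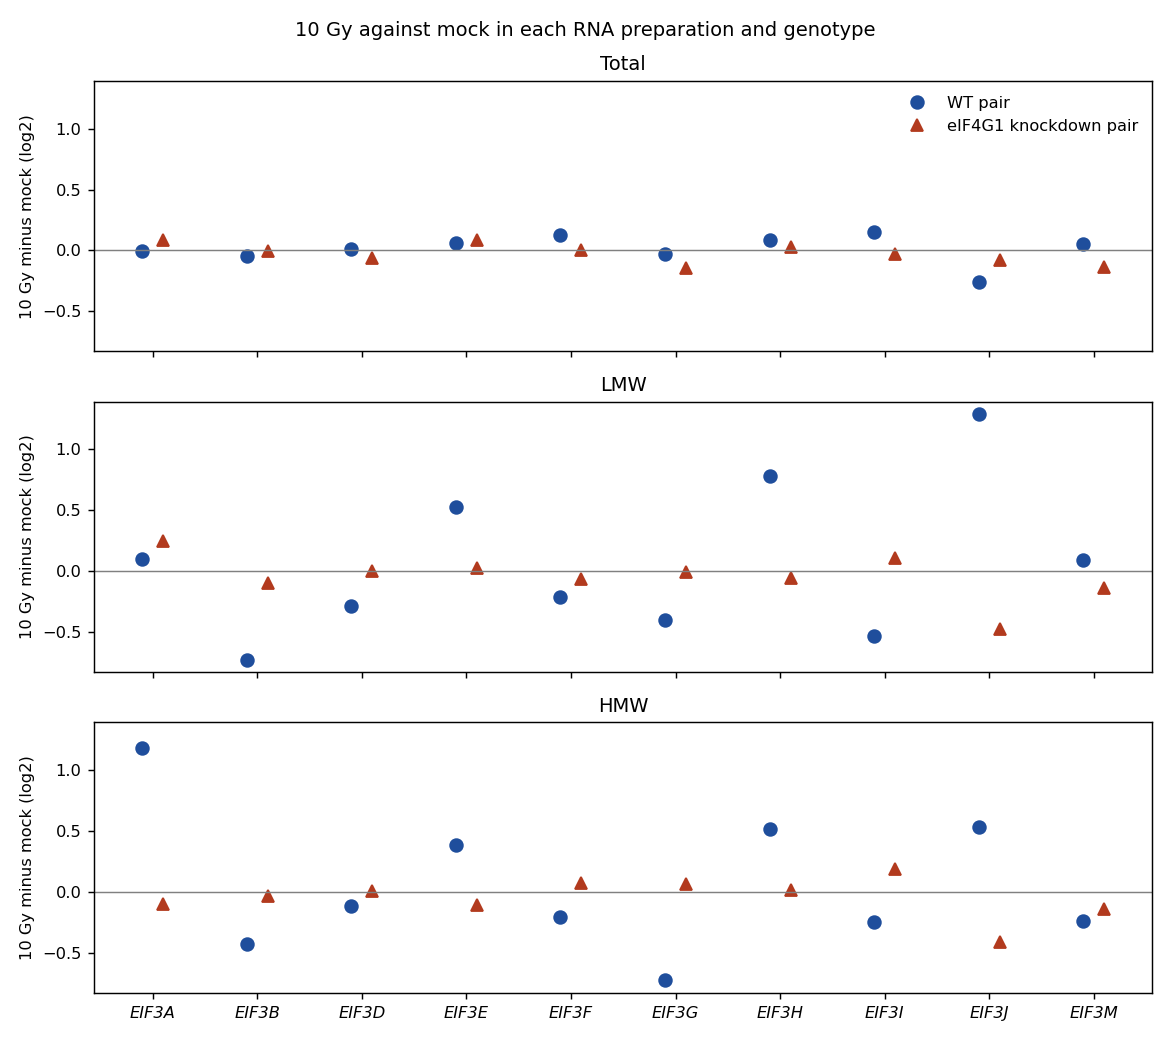
Difference between irradiated (10 Gy) and mock-treated cells (log2) for each eIF3 subunit mRNA in total RNA (Total), light polysomes (LMW) and heavy polysomes (HMW); circles are the WT pair and triangles the eIF4G1 knockdown pair, 1 array against 1. In Total all points lie between -0.26 and 0.15, while WT pairs reach 1.29 for EIF3J in LMW and 1.18 for EIF3A in HMW.

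Other genes of initiation give the setting. Of 29 other initiation factor genes tested, 5 were higher (19.6% of all genes tested) and 5 lower (21.1%) in HMW than in LMW, near the shares of all genes. EIF5B, the GTPase of subunit joining, was highest at 2.85 and the cap-complex inhibitor EIF4EBP1 lowest at -0.83. EIF3K, a core subunit outside the members, was lower in HMW than in LMW (-0.34, adjusted p = 0.0209) and above Total in LMW (0.77, adjusted p = 0.00478), whereas EIF3L passed in neither. In Total of the knockdown both EIF3K (0.32, adjusted p = 0.00455) and EIF3L (0.21, adjusted p = 0.0172) rose. Of the 29 other factors 11 rose (20.7% of all genes tested) and 4 fell (19.8%), EIF4G1 among them. Of 52 cytosolic ribosomal protein genes 28 rose (20.7% of all genes tested) and 0 fell (19.8%) in Total of the knockdown. Their median was 0.15 beside 0.18 for the 10 eIF3 members. Of 9 elongation factor and related genes tested 3 rose (20.7%) and 0 fell (19.8%) there, with a median of 0.02.

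In HMW against Total 35 of the 52 ribosomal protein genes were lower (18.6% of all genes tested) and 2 higher (17.4%), with a median of -0.36. The eIF3 members had 3 higher and 1 lower there, and a median of 0.30. In the knockdown effect on HMW minus LMW 19 ribosomal protein genes were higher (5.33% of all genes tested) and 0 lower (10.5%). Their median was 0.24, where the members had a median of -0.19. EIF5B rose in both pools of the knockdown, by 3.23 in LMW and 2.30 in HMW, and the test of HMW minus Total gave 2.05 for it (adjusted p = 2.81e-05), the sign that EIF3A showed.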

How the data were processed

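RNA of 12 samples (4 conditions, 3 preparations) was measured on oligonucleotide arrays. The deposited values are linear intensities of 54675 probe sets, made with RMA (background correction, normalisation between arrays, probe summary) per the submitters' processing notes; no source used here gives its version or says whether all arrays were processed together. They were turned to log2. Of the probe sets 41097 had 1 gene symbol, 1801 several and 11777 none or no entry; symbols were updated through gene IDs. Probe sets with several symbols were not used. A gene was tested if 4 or more arrays reached a log2 of 6, which left 10157. The tests were those of limma (3.58.1, under R 4.3.3), with a variance trend, p-values adjusted over all genes by Benjamini-Hochberg and a threshold of 0.05. Preparations were compared over 8 arrays with the condition as a block. Knockdown and 10 Gy entered 1 additive model of the 4 arrays of a preparation, or of the 4 differences between preparations, with the variance trend on the mean level; 1 residual degree of freedom remains. The scripts were tested on simulated data. Alternatives were other filters, probe sets, normalisation, variance priors, blocks and left-out conditions. All 10 members were named throughout; of other lists at most the 2 highest and 2 lowest genes past the threshold. The members and lists were chosen with earlier results of these data known.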

Additional observations from a re-analysis of the deposited data

Results flagged for a closer look

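For 4 members the knockdown difference itself differed between RNA preparations by the limma test of that difference, each over 2 pairs. Of all genes tested 15.8% passed in HMW minus LMW and 4.46% in HMW minus Total. How far the 2 pairs of a gene lie apart has little part in the p-value of the first test and none in that of the second. EIF3B (-1.15, adjusted p = 3.17e-05) and EIF3D (-0.92, adjusted p = 0.000277) were lower, and EIF3J (0.96, adjusted p = 0.0185) higher, in HMW minus LMW of the knockdown. EIF3A was higher in HMW minus Total (1.49, adjusted p = 9.25e-05). The WT mock arrays, which stood apart in both polysome pools, enter only the mock pair of each. The 10 Gy pair alone, which in HMW minus LMW rests on the LMW array of irradiated WT cells that also stood apart, gave -1.27 for EIF3B, -1.002 for EIF3D, 1.36 for EIF3J and 0.80 for EIF3A, values of 1 difference against 1 with no test.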

How the results depend on the processing

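Of 865 values of single members under other settings, 795 stayed on the same side of the threshold, 51 lost their call, 12 gained one and 7 reversed; 31 sign changes of members that passed in neither fit are not counted as reversals. For HMW against LMW the 5 called members (40.7% of all genes tested) became 3 when all probe sets were summarised by their median (40.3%). The count became 3 without _x_at and _s_at probe sets (39.2%) and 0 without the condition block (0.541%). Leaving out a condition gave 3 to 6 (22.5% to 45.2%). For HMW against Total the 4 (36%) became 2 by that median (36.6%) and 3 to 5 with a condition left out (16.3% to 44.3%). The 7 for LMW against Total (56.6%) became 5 to 7 with a condition left out (42.7% to 54%). For the knockdown in Total the 5 (40.5%) became 3 without a variance trend (34.6%), 0 in the fit of all 12 arrays (2.36%) and 3 without the WT mock arrays (25.9%). In LMW the 3 (15.4%) became 1 without a trend (16%) and 9 without the WT mock arrays (61.2%). In HMW the 1 (9.9%) became 0 without _x_at and _s_at probe sets (7.93%) and 3 without the WT mock arrays (39.9%). Without _x_at and _s_at probe sets, 1 of the 3 members in HMW minus LMW (7.56%) and 0 of the 1 in HMW minus Total (3.81%) passed. EIF3E in Total of the knockdown was -0.55 by the median and -1.26 without _s_at probe sets, and -1.62 in LMW with the latter; EIF3H was -0.32 with the median, and EIF3A -0.57 without _s_at probe sets. Without the WT mock arrays EIF3H was -0.35 in LMW and EIF3G 0.30 in HMW. The cause of these changes was not tested, apart from the smaller number of members tested (8 with the median, 7 without _x_at and _s_at). The 10 Gy counts stayed at 0 in all settings run (at most 1.52%). Quantile normalisation moved the median of all genes to -0.14 in HMW minus LMW, 0.11 in HMW minus Total and 0.18 in LMW minus Total, and reversed no called member. It moved the share of 10 Gy calls that were higher from 72.2% to 41.9% in Total and from 92.1% to 50% in LMW. Over all genes, calls fell from 4134 to 55 in HMW against LMW without the block, and from 4113 to 240 for the knockdown in Total in the fit of all 12 arrays; without the WT mock arrays they rose from 1565 to 6218 for the knockdown in LMW and from 1006 to 4057 in HMW. Low signals limit the second probe sets of EIF3E and EIF3H, which reached the filter level in 7 and 4 of 12 arrays. That of EIF3E reached it in every Total array. The labels give no replicate numbers; preparations were paired by condition, and the fit without that block is given above.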
